A study of Mus musculus with 16 samples.

Results

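Maturation of foetal liver erythroblasts from stage S1 to stage S3 was followed in embryos heterozygous for a deletion of the *Nprl3* promoter (*Nprl3*+/-, Het). The comparison holds 4 of the 16 RNA-seq libraries of the series, chosen by titles that name the heterozygous genotype, and they are 1 S1 and 1 S3 library from each of embryos 3 and 4. Both embryos were male, at E13.5 (embryonic day), and both carried 1 allele without the promoter and 1 intact allele in every cell from conception, since the deletion is constitutive and not restricted to blood. Cells were sorted by the surface markers Ter119 and CD71, between 10000 and 30000 cells a library, and amplified RNA was then taken through polyA selection. *Tfrc* encodes CD71, a marker of the sort, and its change is therefore not given as a finding. The other 12 libraries, 8 from wild-type (WT) and 4 from homozygous (KO) embryos, were of the same stages and age. They were used to ask whether the Het change differed and, for KO, to show what is counted as *Nprl3* without its promoter. WT embryos 1 and 5 and KO embryo 2 were female and the others male, and sex was not a term of the fits. Source and tissue fields of the labels name an embryonic stem cell line, whereas titles and sorting protocol give foetal liver erythroblasts, and the erythroid factor *Gata1* stood at 349 to 905 CPM (reads scaled to library size) in the 4 libraries.

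S1 erythroblasts are colony-forming progenitors that divide fast, depend on erythropoietin and still make little haemoglobin. By S3 they are basophilic erythroblasts, which pass through their last divisions while they fill with haemoglobin, take up iron through CD71, build the spectrin skeleton and prepare to expel the nucleus and clear their mitochondria. NPRL3 is a subunit of GATOR1, a complex that switches off the growth kinase mTORC1 when amino acids are scarce, and its gene lies beside the α-globin genes with their enhancers in its introns.

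Total counts were 36035368 and 27044302 in the S1 libraries of embryos 3 and 4, and 26041199 and 26012168 in the S3 libraries, and pairs of values below keep that order of embryos. Levels are normalised CPM, reads of a gene as a share of the library, scaled by the trimmed mean of M-values (TMM), which assumes that most genes keep their level, and levels of different genes are compared as TPM, shares that also divide by gene length. Globin genes took 0.104% and 0.137% of the S1 counts and 11.9% and 11.6% of the S3 counts, and the 10 most abundant genes took 4.13% and 4.28% at S1 but 20.6% and 19.9% at S3. The number of genes with at least 1 CPM was 11189 and 11258 at S1 and 9516 and 9702 at S3. Neither library of a stage stood apart from the other by these measures, and those of one stage differed by more than counting error (chi-square per degree of freedom 24.01 at S1 and 9.76 at S3), so they were kept as separate samples. Stage markers moved with the labels, since all 10 listed progenitor markers fell and all 9 tested markers of maturing erythroblasts rose. In bulk RNA, fewer cells of a type and less RNA per cell cannot be told apart.

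Maturation in Het erythroblasts moved most expressed genes. Of 13085 genes tested, 4389 were higher at S3 (33.5%) and 5578 lower (42.6%) at a Benjamini-Hochberg adjusted p below 0.05 (quasi-likelihood test of edgeR), and these shares are the background for each list below. S1 and S3 libraries did not overlap in 11471 genes (87.7%), with S3 above S1 in 5113 and below in 6358. Changes over 3 on the log2 scale, that is over 8-fold, were called upwards in 893 genes and downwards in 1337. The median log2 fold change over all genes was -0.17, and it was -1.05 when libraries were scaled by total count alone and 0.07 with upper-quartile scaling, so small changes of broadly expressed genes depend on the scaling. Under total-count scaling 2243 genes were higher and 8475 lower, and 493 genes were called in the opposite direction.

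The embryos mostly changed alike. Of the called genes, 9956 changed in the same direction in both embryos and 11 in opposite directions, and the median absolute gap between the changes of the embryos was 0.25 on the log2 scale. A gap over 1 was seen in 1267 genes. Wide gaps were seen in genes with few reads at S1 or S3, such as *Cd34*, *Kit*, *Bcl2* and *Socs3*, which are marked in the plot of the changes of both embryos, but also in *Lyz2*, which had 1197 and 1355 reads at S1 and 249 and 120 at S3. With the embryo as a replicate block, 4455 genes were higher and 5637 lower.

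**Figure D1:**
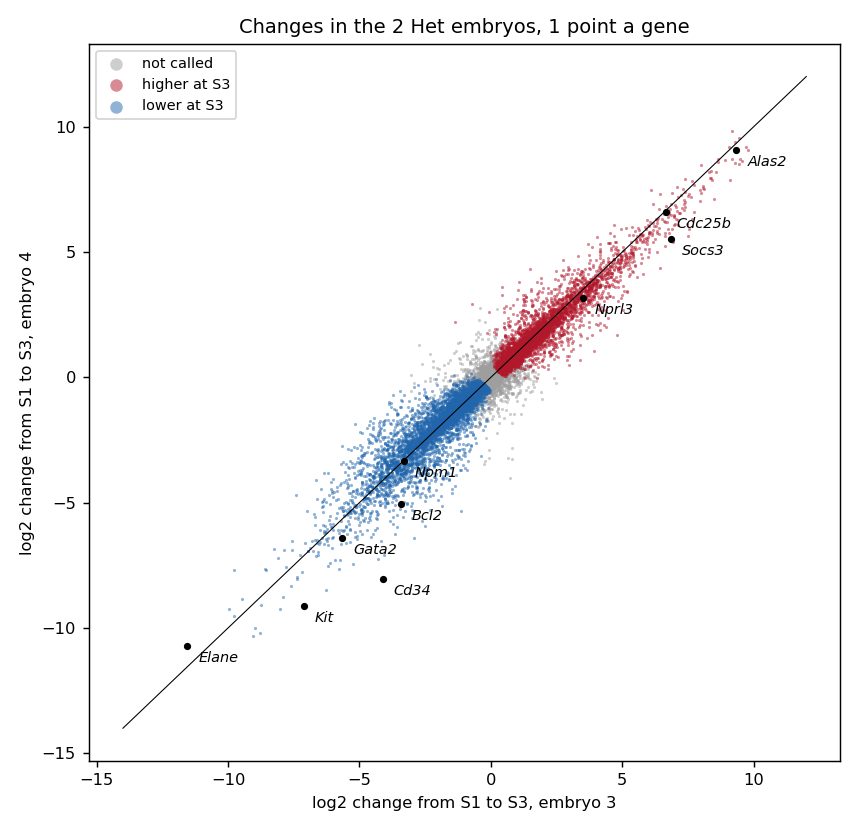
Each point is a gene, with its log2 change from S1 to S3 in embryo 3 on the x axis and in embryo 4 on the y axis, and the line marks equal changes. Red and blue points are genes called higher and lower at S3, grey points are not called, and *Cd34* (-4.10 in embryo 3 and -8.05 in embryo 4) and *Kit* (-7.12 and -9.13) lie below the line.

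*Nprl3* itself rose during maturation. Its gene lies at chr11:32175628-32217707 of mm39 on the minus strand, and *Mpg*, which encodes a DNA repair glycosylase, lies inside its bounds on the other strand at chr11:32176505-32182700. *Nprl3* stood at 12.3 and 12.6 CPM in the S1 libraries and 142 and 114 CPM in the S3 libraries, a log2 fold change of 3.36 ± 0.14 (SE, n = 2 embryos), and the stages did not overlap (adjusted p = 2.4e-23, edgeR). The rise was 3.52 in embryo 3 and 3.17 in embryo 4. *Mpg* rose from 8.00 and 8.28 to 45.2 and 42.9 CPM, less steeply than *Nprl3*, at a log2 fold change of 2.44 ± 0.15. Counting ignored the strand and left out pairs that overlap several genes, so reads that run against these genes cannot be told apart from their own. Transcripts that start at the α-globin enhancers within the *Nprl3* introns are counted as *Nprl3* as well, and in KO libraries, which lack the promoter on both alleles, the level scaled over all 16 libraries was 0.319 and 0.676 CPM at S1 but 107 and 111 CPM at S3. A window around the annotated start of *Nprl3* is shown because the promoter is what 1 Het allele lacks, though the bounds of the deletion were not used here. It runs from 250 bases before to 50 bases after the annotated start (from the RefSeq promoter table, GRCm38.p6, matched exactly to chr11:32217658-32217957 of GRCm39, minus strand), and capitals mark a match to the GC-rich CACCC-type word CCGCCCC on the other strand. Of the other words searched it holds TTTGAA and, on the other strand, TATAAA, both left in lower case, and no GATA word (AGATAA or TGATAA).
Nprl3: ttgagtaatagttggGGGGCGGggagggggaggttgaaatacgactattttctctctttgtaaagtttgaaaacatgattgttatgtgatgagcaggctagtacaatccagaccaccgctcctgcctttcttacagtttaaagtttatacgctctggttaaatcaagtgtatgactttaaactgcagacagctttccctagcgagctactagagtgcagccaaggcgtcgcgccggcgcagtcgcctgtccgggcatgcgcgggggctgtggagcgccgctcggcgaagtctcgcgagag

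Of 9 tested genes around the α-globin cluster 8 rose. They are *Nprl3* itself, *Mpg*, *Snrnp25* and the globins *Hba-x*, *Hba-a1*, *Hba-a2*, *Hbq1a* and *Hbq1b*, which the haemoglobin list also holds. *Rhbdf1*, another neighbour, was too low to be tested, with 4 and 4 reads at S1 and 6 and 13 at S3. *Snrnp25*, a minor spliceosome component, went from 51.7 and 64.4 to 395 and 359 CPM (log2 fold change 2.701 ± 0.13). *Polr3k*, an RNA polymerase III subunit in the same list, was not called and its log2 fold change was -0.10 ± 0.12.

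Haemoglobin genes had the highest median change of the 29 function lists. All 10 tested members were higher at S3, against 33.5% of all genes, and their log2 fold changes ran from 6.85 to 9.49 around a median of 8.90, which was 8.29 without the S1 library of embryo 3. *Hbb-bs*, an adult β-globin, was at 206 and 282 CPM at S1 and 56864 and 50933 CPM at S3, so that the S3 libraries lay 221-fold above S1. *Hba-a1*, an adult α-globin, rose 116-fold and *Hba-a2* 232-fold, but these copies are nearly identical and reads shared between them were not counted. Per length, the 4 most abundant transcripts of S3 were globins, with TPM of 111950 and 109643 for *Hbb-bs*, 106307 and 104767 for *Hba-a1*, 73741 and 73592 for *Hbb-bt* and 32985 and 31796 for *Hba-a2*. The embryonic globins *Hbb-y*, *Hbb-bh1* and *Hba-x*, which mark primitive erythroid cells, were near absent at S1 and rose too. Per library their summed level was 4.51 and 3.43 CPM at S1 and 3500.3 and 2159 CPM at S3. *Hbb-y* was at 2.13 and 0.808 CPM at S1 and 1525 and 654 CPM at S3, and its log2 fold change of 9.46 ± 0.31 was 10.36 without the S1 library and 8.73 without the S3 library of embryo 3. Whether primitive cells passed the S3 gate was not tested.

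The promoters of *Hbb-bs* and *Alas2* are shown because these genes rose steeply and each window holds a GATA word. A GATA word (AGATAA or TGATAA, either strand) was present in 66.7% of the 9 haemoglobin genes with a window and in 36.4% of 22 genes of the membrane skeleton, but in 14.3% of 14 haem synthesis genes, against 5122 of all 27025 promoters and 10.5% of those of the genes tested. A CACCC word was present in 11.1% of the haemoglobin and 57.1% of the haem synthesis windows, against 26.1% of all promoters and 45.8% of those of the genes tested. In the windows below capitals mark GATA words, CACCC words (CCACACCC or CCGCCCC) and, for *Hbb-bs*, the CCAAT box. The window of *Hbb-bs* (chr7:103477086-103477385, GRCm39, minus strand) holds AGATAA from base -210, CCACACCC from base -93 and CCAAT from base -76 relative to the start. That of *Alas2* (chrX:149330163-149330462, plus strand) holds AGATAA on the other strand from base -86.
Hbb-bs: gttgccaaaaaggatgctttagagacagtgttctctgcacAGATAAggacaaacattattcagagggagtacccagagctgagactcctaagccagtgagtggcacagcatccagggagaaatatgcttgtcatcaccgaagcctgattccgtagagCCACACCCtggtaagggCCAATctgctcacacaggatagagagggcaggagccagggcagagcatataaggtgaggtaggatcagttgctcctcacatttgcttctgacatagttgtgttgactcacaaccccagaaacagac
Alas2: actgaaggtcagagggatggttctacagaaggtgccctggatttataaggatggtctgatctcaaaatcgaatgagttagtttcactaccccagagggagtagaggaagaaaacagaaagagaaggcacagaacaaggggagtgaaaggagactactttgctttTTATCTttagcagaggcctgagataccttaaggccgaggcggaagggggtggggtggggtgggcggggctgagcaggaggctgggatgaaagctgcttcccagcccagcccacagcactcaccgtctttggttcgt

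Haem synthesis rose nearly as a whole, with 13 of 16 genes higher, 2 lower and a median log2 fold change of 3.27. *Alas2*, the erythroid enzyme of the committed step (chrX:149330371-149353634), was at 15.8 and 15.8 CPM at S1 and 10285 and 8541 CPM at S3, a log2 fold change of 9.22 ± 0.22 (adjusted p = 9.1e-31, edgeR). Its housekeeping counterpart *Alas1* fell, from 58.9 and 50.5 to 1.67 and 3.33 CPM, with a log2 fold change of -4.44 that was -5.03 without the S3 library of embryo 4. *Fech*, which inserts iron into the ring, rose 28.8-fold, and *Uros*, *Urod* and *Ppox* rose between 3.65 and 4.08 on the log2 scale. *Flvcr1*, a haem exporter, fell from 26.3 and 20.5 to 2.16 and 1.94 CPM. *Clpx*, a mitochondrial chaperone that acts on ALAS2, was not called at a log2 fold change of 0.24 ± 0.12.

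Iron genes were mostly higher, with 14 of 22 members higher, 3 lower and a median of 1.01, or 13 of 21 higher, 3 lower and a median of 0.79 without *Tfrc*. *Slc25a37*, the mitochondrial iron importer mitoferrin, rose from 15.6 and 14.1 to 2191 and 2077 CPM. The ferritin chains *Fth1* and *Ftl1* rose 8.18-fold and 7.98-fold, and *Ncoa4*, the receptor that delivers ferritin for degradation, 22.6-fold. *Aco1*, an iron-sensing RNA-binding protein, fell from 32.1 and 25.2 to 7.50 and 5.91 CPM. *Slc40a1* and *Hmox1*, which macrophages also express, rose by 1.23 and 3.91, and the summed macrophage markers without *Hmox1*, itself one of them, were 36.1 and 52.5 CPM at S1 and 73.8 and 52.7 CPM at S3. Their part in this was not tested.

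The membrane skeleton and blood group genes rose in 27 of 30 cases, with 2 falls and a median of 3.34. *Slc4a1*, the anion exchanger band 3, was at 9.26 and 7.66 CPM at S1 and 5793 and 5124 CPM at S3, the largest rise of the list at 9.33 ± 0.21 on the log2 scale. *Sptb*, a spectrin chain, rose 32.7-fold. *Epb42* (protein 4.2) went from 26.04 and 25.2 to 1926 and 1663 CPM, *Dmtn* (dematin) rose 79.8-fold and *Tmod1* (tropomodulin) 61.9-fold. *Add3*, an adducin that is not the red cell form, fell by 0.73 on the log2 scale, while *Add1* and *Add2* rose by 2.10 and 2.38. *Aqp1*, the water channel, did not pass the test at 0.05 ± 0.14.

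**Figure D2:**
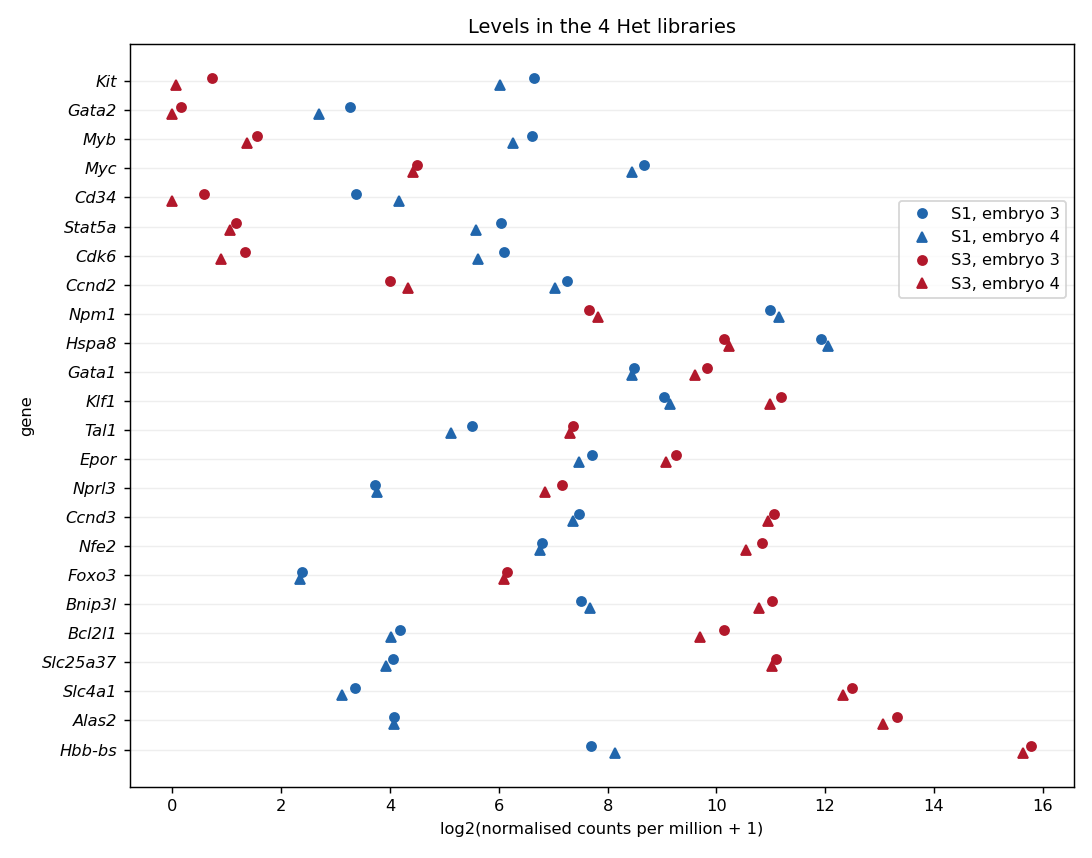
Levels of 24 genes in the 4 Het libraries as log2(normalised CPM + 1) on the x axis, with S1 in blue, S3 in red, circles for embryo 3 and triangles for embryo 4. The stages do not overlap in any of the genes shown, and *Gata2* (0.108 and 0 CPM) and *Hbb-bs* (56864 and 50933 CPM) mark the ends of the S3 range.

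Erythroid transcription factors rose in 16 of 20 cases, with 3 lower and a median of 1.71. *Gata1*, the central activator of erythroid genes, went from 356 and 349 to 905 and 784 CPM, and in TPM, where globin takes a large share of S3, it was 584 and 535 at S1 and 561 and 532 at S3. *Klf1* rose by 1.99 ± 0.14 and *Tal1* by 2.03 ± 0.13 on the log2 scale. Factors of late maturation rose more, *Nfe2* from 110.2 and 107 to 1833 and 1489 CPM and *Foxo3*, a regulator of autophagy and antioxidant genes, from 4.22 and 4.07 to 69.9 and 67.7 CPM. *Gfi1b*, a repressor, was called higher at 0.73 ± 0.12, a direction that turned to -0.13 with total-count scaling. *Bcl11a*, the repressor of embryonic globin, fell by 1.28 ± 0.12, and *Ldb1* and *Rcor1*, cofactors of GATA1 and GFI1B, fell by 0.76 and 0.75.

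Progenitor regulators fell in 19 of 23 tested cases, against 42.6% of all genes, with 3 higher and a median of -3.66. *Kit*, the stem cell factor receptor (chr5:75735576-75817382), was at 99.3 and 63.9 CPM at S1 and 0.647 and 0.0497 CPM at S3. Only 12 and 1 reads of *Kit* were left at S3, so its log2 fold change of -7.90 ± 0.30 became -10.58 without the S3 library of embryo 3 and -6.97 without that of embryo 4. *Gata2*, which GATA1 replaces, went from 8.59 and 5.43 CPM to 0.108 and 0 CPM, with 2 and 0 reads at S3. *Myb*, which keeps progenitors dividing, fell 49.02-fold, from 96.8 and 75.9 to 1.94 and 1.59 CPM. *Myc* fell from 406 and 349 to 21.6 and 20.5 CPM, and *Cd34* from 9.40 and 17.03 to 0.485 and 0 CPM. *Spi1* (PU.1), a myeloid factor, fell by 2.42 ± 0.20. *Runx1* had a log2 fold change of -0.28 ± 0.20 and did not pass the test, although without the S1 library of embryo 4 it was called at -0.55. The risers were *Sox6*, which takes part in silencing embryonic globin, at 4.99, *Lyl1* at 2.28 and *Itga4* at 1.30.

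Markers of neutrophils, mast cells, basophils and lymphoid cells were present at S1 and near 0 at S3. All 8 tested of 11 neutrophil markers fell, and their summed level was 1534 and 1533 CPM at S1 and 2.48 and 1.09 CPM at S3. *Mpo*, myeloperoxidase, held 53543 and 37653 reads at S1 and 37 and 15 at S3, and *Elane*, neutrophil elastase, 9546 and 6942 reads at S1 and 0 and 1 at S3. Among the 10 largest falls of genes over 50 CPM, *Elane*, *Ms4a3*, *Stfa1*, *Prg2*, *Ctsg*, *Mpo*, *Prtn3*, *Anxa1* and *Plac8* are genes of myeloid cells and *Kit* is the remaining one. *Prg2*, the eosinophil granule protein, held 7402 and 4379 reads at S1 and 2 and 2 at S3. Mast cell and basophil markers summed to 64.9 and 46.0 CPM at S1 and 0.162 and 0 CPM at S3. Lymphoid markers summed to 55.0 and 60.3 CPM at S1 and 0.539 and 0.546 CPM at S3. Of 8 listed mast cell and basophil markers 4 were tested, and of 8 lymphoid markers 6, all of them lower. Most tested markers of these lineages passed the filter (mean normalised count over 10) through S1 alone, so only a lower call was open to them. Both Het S1 libraries carried these transcripts at a like level, and neither *Ly6g* nor *Cd3e*, markers of mature neutrophils and T cells, had a read in the S1 libraries. *Gata2*, *Cd34*, *Spi1*, *Flt3* and *Meis1* of the progenitor list are also expressed in such cells, and the part of other lineages in their falls was not tested. The foetal liver erythroid antibody panel of the study also held NK1.1, CD90.2, B220, CD11b and Gr1, surface markers of mature lymphoid and myeloid cells, whereas the sort of these libraries is described by Ter119 and CD71 alone.

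Most markers of liver and macrophages moved the other way, at low levels. Of 14 tested macrophage markers 11 rose and 2 fell, and their sum went from 37.5 and 53.7 CPM at S1 to 95.0 and 68.9 CPM at S3. Without *Hmox1*, also an iron gene, the sum was 36.1 and 52.5 CPM at S1 and 73.8 and 52.7 CPM at S3, so it hardly moved in embryo 4. *C1qa*, *C1qb* and *C1qc*, complement chains of resident macrophages, rose by 3.42, 3.23 and 3.59 on the log2 scale (*C1qc* by 2.95 without the S3 library of embryo 3), and *Timd4* and *Spic*, which mark the macrophages that engulf nuclei, by 3.44 and 4.08. *Lyz2*, lysozyme, the macrophage marker with the most reads at S1, fell from 24.3 and 37.8 to 13.4 and 5.96 CPM (-1.68, and -2.38 without the S3 library of embryo 3). *Csf1r* was lower at -0.999 ± 0.29, a change that was -1.73 without the S3 library of embryo 3 and -0.50, with no call, without that of embryo 4. Of 14 hepatoblast markers 11 rose, *Alb* from 4.57 and 2.56 to 19.9 and 23.8 CPM, and their sum was 50.2 and 33.2 CPM at S1 and 154 and 203 CPM at S3. *Hnf4a* was called lower at -1.31 on the log2 scale, a call that was lost without the S1 library of embryo 3 (-1.22) or the S3 library of embryo 3 (-0.59). Megakaryocyte markers had 3 members higher and 3 lower of 8 tested, a median of 0.18 that turned to -0.67 with total-count scaling, and sums of 29.8 and 25.4 CPM at S1 and 54.2 and 53.3 CPM at S3. Of 11 endothelial and mesenchymal markers 3 were tested, with *Kdr* (5 and 0 reads at S1, 54 and 40 at S3) and *Lyve1* (6 and 2 and then 15 and 14) higher and *Pecam1* (130 and 71 and then 2 and 1) lower, and the sum of the list was 4.34 and 2.59 CPM at S1 and 5.12 and 3.53 CPM at S3.

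Erythropoietin signalling was split, with 10 of 24 members higher and 11 lower, and a median of -0.21 that turned to 0.04 with upper-quartile scaling. Receptor and kinase rose, *Epor* from 209 and 178 to 609 and 541 CPM and *Jak2* by 1.72 ± 0.13 on the log2 scale. The transcription factors downstream fell, *Stat5a* from 64.99 and 46.7 to 1.24 and 1.09 CPM and *Stat5b* by 1.86 ± 0.15. *Cish*, a feedback inhibitor, went from 1.32 and 1.53 to 58.3 and 48.8 CPM, *Pim1*, a survival kinase, rose 26.95-fold, and *Socs3*, another feedback inhibitor, went from 0.223 and 0.585 to 33.5 and 29.7 CPM, with a log2 fold change of 6.36 that was 5.72 without the S1 library of embryo 3 and 7.07 without that of embryo 4. *Socs1*, a further feedback inhibitor, was too low to be tested, with 13 and 8 reads at S1 and 1 and 0 at S3. The phosphatase *Ptpn6* and the kinase *Lyn*, both active in many blood cells, fell by 4.73 and 2.86.

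Survival genes of the BCL2 family moved in opposite directions. *Bcl2l1*, which encodes the BCL-XL protein that keeps late erythroblasts alive, rose from 17.2 and 15.1 to 1125 and 833 CPM, a 60.5-fold change (adjusted p = 1.52e-28, edgeR). *Mcl1* rose by 1.61 ± 0.12, whereas *Bcl2* fell from 2.35 and 2.09 to 0.162 and 0 CPM, with 3 and 0 reads left at S3. In the whole apoptosis list 8 of 24 tested members were higher and 13 lower, with a median of -0.40. *Bid* fell by 3.77 ± 0.14, while *Bbc3* (PUMA) and *Mdm2* rose by 2.24 and 1.42.

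Genes of the G1 machinery moved in both directions, with 15 of 23 members higher, 5 lower and a median of 1.36. *Ccnd2* and *Cdk6*, a cyclin D and a kinase it drives in progenitors, fell from 153 and 129.9 to 14.9 and 19.2 CPM and from 67.3 and 48.2 to 1.51 and 0.844 CPM. *Ccnd3*, the cyclin D of late erythroblasts, rose from 178 and 164 to 2142 and 1967 CPM, and it had the most reads of the D cyclins at both stages. *Cdk4* fell by 1.82 ± 0.13. Among the inhibitors of these kinases *Cdkn2d* rose 72.9-fold to 941 and 805 CPM, *Cdkn2c* rose 26.1-fold and *Cdkn1b* (p27) 24.9-fold, the last by 5.24 on the log2 scale in place of 4.64 without the S1 library of embryo 3. *Cdkn1a* and *Cdkn1c* rose by 1.20 and 2.08 on the log2 scale, the former by 0.54 in embryo 3 and 1.66 in embryo 4, while *Cdkn2b* (10 and 8 reads at S1, 1 and 4 at S3) and *Cdkn2a* (0 reads in each library) were not tested. *E2f2*, an E2F factor needed for terminal maturation, rose from 10.3 and 8.19 to 625 and 504 CPM and *Rb1* by 3.78 ± 0.13.

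Mitosis and cytokinesis genes rose throughout, with 36 of 36 members higher against 33.5% of all genes, with a median of 1.97 that fell to 1.11 with total-count scaling. *Cdc25b*, the phosphatase that triggers entry into mitosis, rose furthest, from 9.95 and 8.78 to 1001 and 864 CPM (6.63 ± 0.16). *Cenpf*, a kinetochore protein, rose by 3.39, and *Prc1*, which bundles the midzone spindle, from 60.7 and 63.97 to 473 and 452 CPM. *Cdk1*, *Ccnb1* and *Aurka*, which drive mitosis, rose by 2.06, 1.81 and 2.25. *Cdc20* had the smallest change, 0.46 ± 0.12, and with *Bub1b* and *Mad2l1* it turned negative with total-count scaling (-0.40 for *Cdc20*). DNA replication genes rose in 30 of 39 cases and fell in 3, with a median of 0.72 that turned to -0.14 with total-count scaling. *Rrm2*, the regulated subunit of ribonucleotide reductase, rose from 1112 and 1142 to 6021 and 5298 CPM, and *Tyms* and *Lig1* by 1.47 and 1.45. *Pold1*, *Mcm10* and *Rfc5* fell by 0.79, 0.47 and 0.40, the last without a call (-0.34) when the S3 library of embryo 4 was left out.

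Promoters of a mitosis and a replication gene are shown because members of these lists moved together and many hold the words below. The cell cycle homology region word TTTGAA was found, on either strand, in 72.4% of 29 mitosis genes with a window, against 18.1% of all promoters, and the CCAAT box in 79.3% against 37.9%. An E2F word (TTTCCCGC or TTTGGCGC) was found in 32.3% of 31 replication genes against 1.63% of all promoters, and 3.34% of the promoters of genes tested. Capitals mark only TTTGAA and CCAAT in *Prc1* (chr7:79943949-79944248, GRCm39, plus strand) and TTTGGCGC and CCAAT, the latter on the other strand, in *Mcm6*, a helicase subunit (chr1:128287393-128287692, minus strand).
Prc1: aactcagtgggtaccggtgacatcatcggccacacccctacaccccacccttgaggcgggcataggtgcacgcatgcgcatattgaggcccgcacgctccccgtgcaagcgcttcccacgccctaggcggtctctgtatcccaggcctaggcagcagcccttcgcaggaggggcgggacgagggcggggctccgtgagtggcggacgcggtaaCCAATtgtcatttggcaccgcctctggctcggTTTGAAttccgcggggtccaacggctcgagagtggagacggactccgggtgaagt
Mcm6: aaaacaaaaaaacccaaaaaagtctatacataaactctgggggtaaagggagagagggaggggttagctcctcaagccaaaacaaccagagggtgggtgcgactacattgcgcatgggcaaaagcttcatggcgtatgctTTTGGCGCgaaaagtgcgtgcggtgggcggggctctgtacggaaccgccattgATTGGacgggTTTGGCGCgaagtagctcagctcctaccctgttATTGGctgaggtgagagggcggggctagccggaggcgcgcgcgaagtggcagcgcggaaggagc

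Over all called genes the shares were as follows. A GATA word was present in 11.5% of promoters of genes higher at S3 and 10.0% of genes lower, and in 16.5% and 13.2% of those that changed by over 3 on the log2 scale. TTTGAA stood in 14.2% of the promoters of higher genes and 11.3% of lower genes. A match says only that the letters are there.

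Genes of nuclear condensation and enucleation were higher in 15 of 27 cases and lower in 6, with a median of 1.12. *Tmcc2*, a membrane protein of the endoplasmic reticulum, rose from 22.3 and 18.5 to 7506 and 5529 CPM, and *Xpo7*, a nuclear exporter needed for condensation, from 16.7 and 14.02 to 1521 and 1129.9 CPM. *Lmnb2* and *Vim*, filaments of nucleus and cytoplasm, fell by 2.60 and 3.55. *Kmt5a* (SETD8), the histone H4 methyltransferase of condensation, had a log2 fold change of 0.16 ± 0.12 and did not pass the test.

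Ubiquitin enzymes that remodel the red cell proteome rose in 15 of 22 cases and fell in 5, with a median of 2.53. *Ube2o*, which destroys ribosomal proteins, rose from 6.52 and 4.49 to 282 and 233 CPM. *Ube2h*, the conjugating enzyme of the CTLH ligase, went from 12.5 and 10.2 to 507 and 390.3 CPM, whereas the CTLH subunits *Maea* (-0.39 ± 0.12, not called without the S3 library of embryo 4, -0.30) and *Armc8* (-0.04 ± 0.13, not called) had changes near 0. *Trim10* and *Trim58*, erythroid ligases, rose 149-fold and 12.9-fold. *Cand2* and *Ube2e1* fell by 3.50 and 3.24.

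Autophagy and mitophagy genes were higher in 26 of 38 cases, lower in 8, with a median of 1.82. *Bnip3l* (NIX), the receptor that hands mitochondria to autophagosomes, went from 180.4 and 205 to 2090.4 and 1759 CPM. *Ulk1*, the initiating kinase that mTORC1 restrains, rose 7.48-fold and *Calcoco1*, an autophagy receptor, 17.3-fold. Among the ATG8 conjugation enzymes, *Atg4a* and *Atg4d* rose by 3.30 and 3.55 while *Atg3*, *Atg5* and *Atg10* fell by 1.25, 1.10 and 2.36. Lysosomal genes were split, 11 of 31 higher and 11 lower, with a median of 0.17 that turned to -0.69 with total-count scaling. *Ctsb*, a cathepsin, rose from 237 and 264 to 5241 and 4409 CPM, and the hydrolases *Neu1*, *Gaa*, *Glb1* and *Hexa* fell by 2.96 to 4.01.

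Genes around mTORC1 were mixed, with 15 of 41 tested members higher, 14 lower and a median of -0.00042 that turned to 0.25 with upper-quartile scaling. The GATOR1 partners of *Nprl3* changed less than the reads counted as *Nprl3*. Those reads include enhancer transcripts, so the change of promoter-derived *Nprl3* cannot be ranked with that of its partners. *Nprl2* fell, from 28.4 and 29.6 to 15.5 and 16.5 CPM (-0.86 ± 0.15), and *Depdc5* was higher by 0.81 ± 0.21, a direction that turned to -0.04 with total-count scaling. In TPM *Nprl2* was 56.3 and 54.9 at S1 and 11.6 and 13.54 at S3, against 6.48 and 6.22 and 28.3 and 24.9 for *Nprl3* with its enhancer transcripts. Of GATOR2, which opposes GATOR1, *Wdr59*, *Wdr24* and *Mios* fell by 1.97, 0.84 and 0.56, *Sec13* was higher by 0.49 (-0.37 with total-count scaling) and *Seh1l* was not called. Among the Rag GTPases that carry the amino acid signal, *Rragd* (chr4:32983037-33022180) rose from 0.162 and 0.111 CPM at S1 to 23.1 and 19.9 CPM at S3 (adjusted p = 6.07e-23, edgeR), whereas *Rragb* fell from 5.74 and 6.19 to 0.431 and 0.447 CPM. *Rragc* was not called at -0.00 ± 0.12. *Sesn1*, a leucine-regulated GATOR2 inhibitor, rose from 29.8 and 30.6 to 158 and 154 CPM. *Mtor* and *Rptor*, the kinase and its scaffold, rose by 1.31 and 1.35, *Deptor*, an inhibitor, fell by 3.25, and *Eif4ebp1*, the translation repressor that mTORC1 switches off, fell from 169.5 and 188 to 35.2 and 45.4 CPM.

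**Figure D3:**
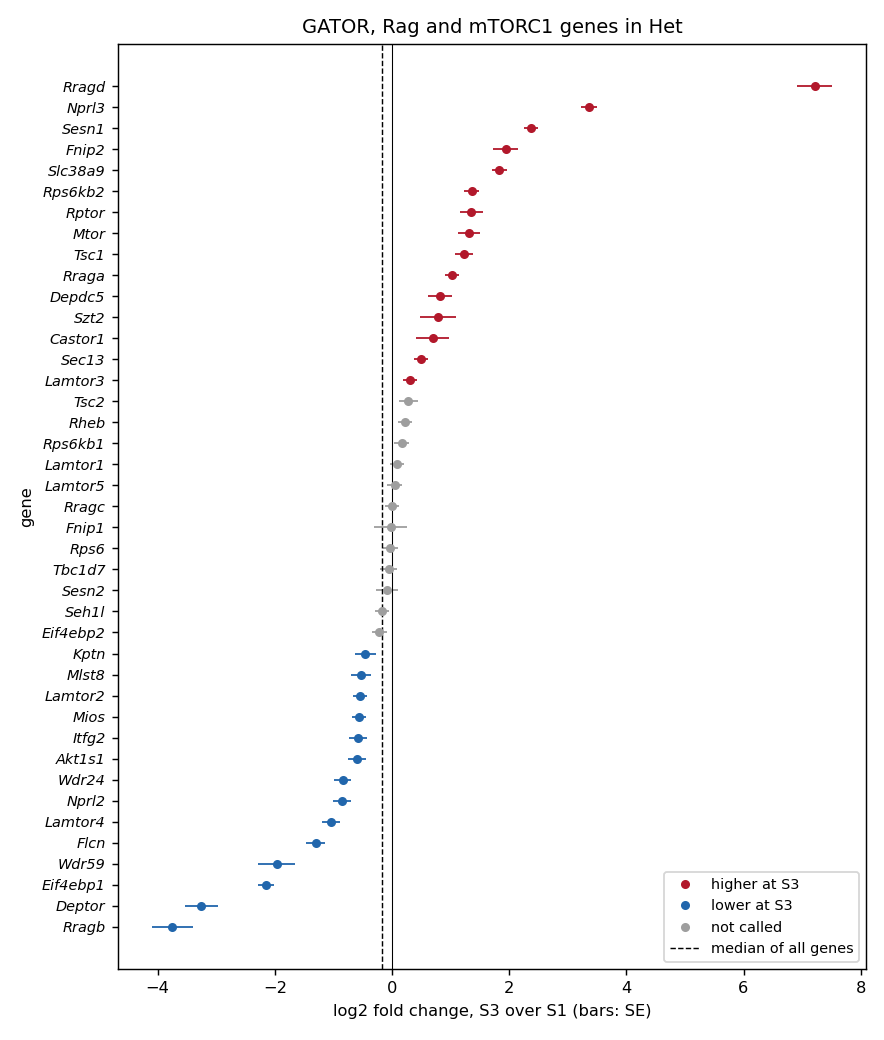
Log2 fold change from S1 to S3 (x axis, bars are SE) of 41 tested GATOR, Rag and mTORC1 genes in Het, ordered by size, with genes called higher in red, lower in blue and not called in grey. *Rragd* (7.21) and *Nprl3* (3.36) lie at the top and *Rragb* (-3.75) at the bottom, and the dashed line is the median of all genes.

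Glycolytic enzymes were mostly lower, with 15 of 21 tested enzymes lower, 5 higher and a median of -1.20. *Ldha*, lactate dehydrogenase, went from 3093 and 3117 to 460.2 and 519.7 CPM, *Pkm* from 646 and 657 to 76.8 and 83.1 CPM and *Aldoa* from 784 and 802 to 179 and 211 CPM. *Hk2* was nearly lost, at 11.7 and 9.39 CPM at S1 and 0.701 and 0.248 CPM at S3, a fall that was -5.39 in place of -4.49 without the S3 library of embryo 3. *Bpgm*, the erythroid enzyme of 2,3-bisphosphoglycerate, rose from 28.4 and 31.9 to 2247 and 1819 CPM and *Pklr*, the red cell pyruvate kinase, by 1.53 ± 0.12. *Pfkl* was called higher at 0.32 ± 0.12, but the call was lost without either S3 library (0.29 and 0.34) or the S1 library of embryo 4 (0.19), and its direction turned to -0.55 with total-count scaling. *Pfkp* fell by 2.38 and *Pfkm* by 0.35, the latter without a call when the S1 library of embryo 3 (-0.16) or the S3 library of embryo 4 (-0.19) was left out. *Hk1* was not called at 0.24 ± 0.12. With the embryo block in edgeR (adjusted p = 0.0479) and by DESeq2 (adjusted p = 0.00768) it was called higher, and its direction reversed with total-count scaling.

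Serine synthesis genes fell. *Phgdh*, *Psat1* and *Psph*, its enzymes in order, fell by 2.08, 2.91 and 0.84 on the log2 scale, *Phgdh* from 524 and 497 to 117 and 125 CPM. In the whole list of serine and one-carbon genes 9 of 16 were lower and 5 higher, with a median of -0.44, and *Shmt1* had the largest fall (-3.66). *Mthfd2* rose by 1.51. The tricarboxylic acid cycle had 8 of 18 members lower and 4 higher, with a median of -0.10 that turned to 0.15 with upper-quartile scaling, led by falls of *Suclg2* (-2.31) and *Idh2* (-2.08) and a rise of *Ogdh* (1.65), whose product with glycine feeds haem. Amino acid transporters were split, 9 of 23 higher and 7 lower, and their median of -0.23 turned to 0.02 with upper-quartile scaling and to 0.09 without the S1 library of embryo 3. *Slc6a9*, the glycine carrier, rose from 3.63 and 4.07 to 131 and 114 CPM, *Slc43a1* 15.6-fold and *Slc1a5*, a glutamine carrier, 10.2-fold. *Slc38a1* and *Slc7a6* fell by 2.67 and 2.49. Of 22 cytosolic tRNA synthetases and proteins of their complex 15 were lower, among them the accessory proteins *Aimp1*, *Aimp2* and *Eef1e1*, and 5 were higher, with a median of -0.45, from *Wars1* (-1.40) to *Aars1* (1.18).

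Ribosome biogenesis fell almost without exception, 35 of 36 members lower against 42.6% of all genes, with a median of -2.29 that was -2.05 with upper-quartile and -3.15 with total-count scaling. The summed level of the list was 12479 and 13500.4 CPM at S1 and 2952 and 3108 CPM at S3. *Npm1*, the abundant nucleolar chaperone, went from 2019 and 2286 to 202 and 225 CPM, *Ncl*, nucleolin, fell by 2.38 and *Rrp9*, a small nucleolar ribonucleoprotein subunit, by 3.64. *Ubtf*, the polymerase I factor, was the member not called, at 0.03 ± 0.12. Cytosolic ribosomal proteins had 5 of 61 members higher and 25 lower, with a median of -0.22, beside -0.17 over all genes, that turned to 0.02 with upper-quartile scaling. *Rps10*, *Rpl13a* and *Rpl5* fell by 1.86, 1.52 and 1.21.

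Respiratory chain genes of the nucleus were higher in 31 of 46 cases and lower in 4, with a median of 0.62 that turned to -0.24 with total-count scaling. *Cox6a1* and *Cox6c* rose by 1.54 and 1.32, and *Ndufb5* and *Cycs* (cytochrome c) fell by 0.88 and 0.70. Of 12 tested genes of the mitochondrial genome 8 were higher and 0 lower, with a median of 0.68 that turned to -0.17 with total-count scaling, and *mt-Co1* rose most, by 1.94 ± 0.13. Mitochondrial genes held 0.400% and 0.437% of the counts at S1 and 0.361% and 0.417% at S3, ranges that overlap. Proteasome genes were higher in 17 of 31 cases and lower in 5, with a median of 0.31 that turned to -0.55 with total-count scaling.

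**Figure D4:**
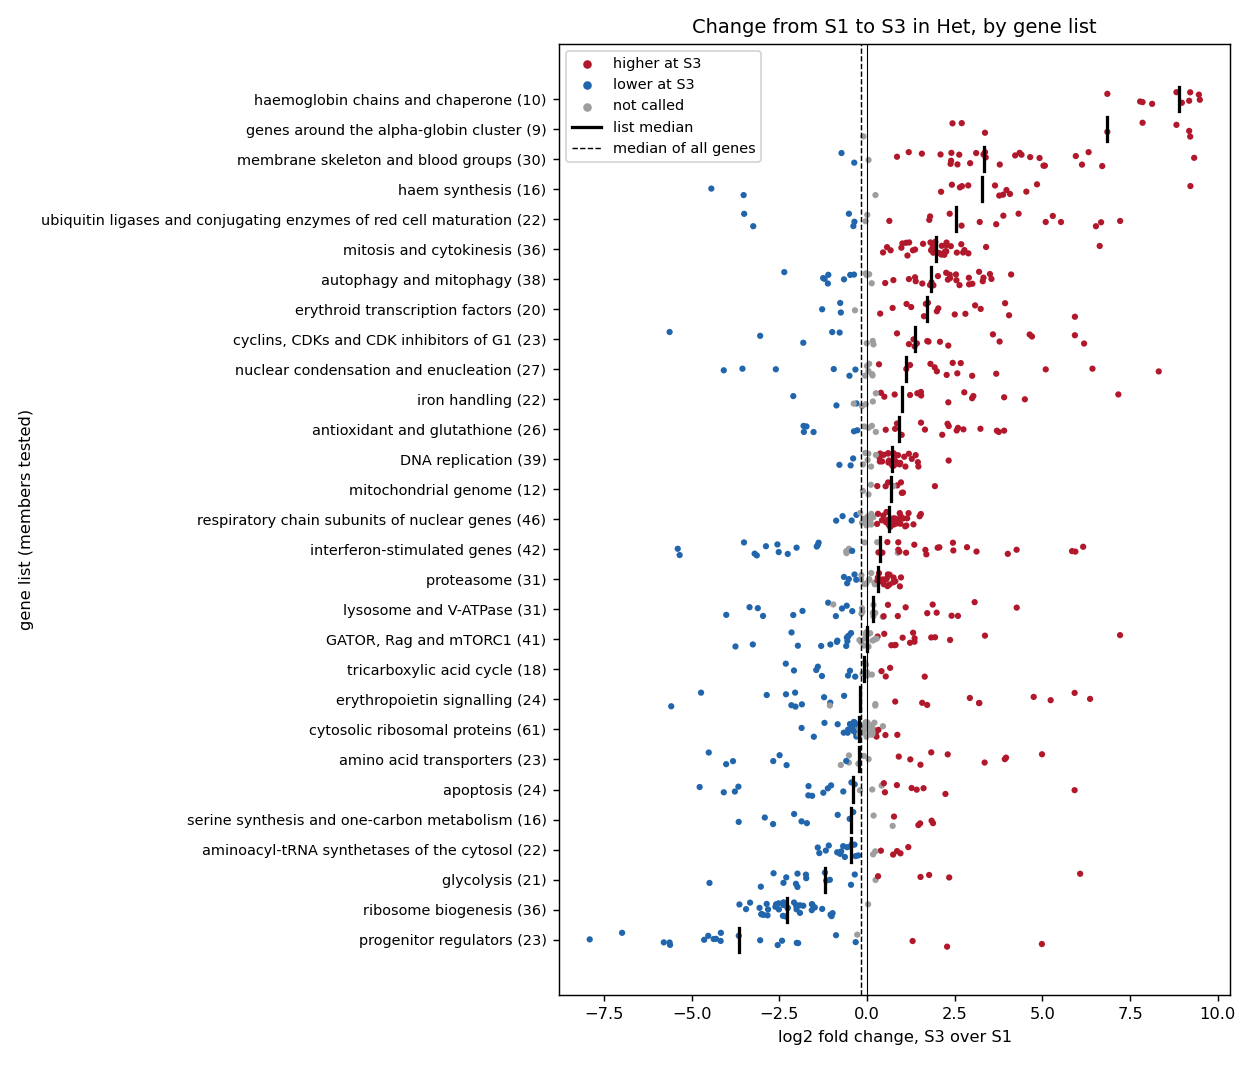
Log2 fold change from S1 to S3 (x axis) of each tested member of 29 gene lists (rows, number tested in brackets), red for genes higher at S3, blue for lower and grey for not called, with a bar at the list median. Haemoglobin chains (median 8.90) and mitosis (1.97) lie to the right of the dashed median of all genes (-0.17), and ribosome biogenesis (-2.29) and progenitor regulators (-3.66) to the left.

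Shares of a family's TPM show which gene of it supplied most transcripts at each stage. These families were put together after the fold changes were known, and the shares are given as a description. *Alas2* made up 40.8 and 44.6% of aminolevulinate synthase transcripts at S1 and 99.99 and 99.98% at S3. *Pklr* made up 17.2 and 14.7% of pyruvate kinase at S1 and 82.6 and 80.7% at S3, with 108 and 84.5 TPM at S1 and 111 and 115 TPM at S3, while that of *Pkm* fell from 516 and 491 to 23.2 and 27.5. *Ccnd3* took 55.03 and 56.4% of the D cyclins at S1 and 99.2 and 99.02% at S3. *Bcl2l1* took 9.63 and 9.97% of *Bcl2*, *Bcl2l1* and *Mcl1* at S1 and 70.1 and 66.3% at S3. *Stat5b* took 58.05 and 58.01% of STAT5 at S1 and 94.4 and 95.2% at S3, and *Rragd* 0.113 and 0.0936% of RagC and RagD at S1 and 15.6 and 12.6% at S3. In hexokinase *Hk1* held 92.2 and 92.4% at S1 and 99.2 and 99.3% at S3.

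**Figure D5:**
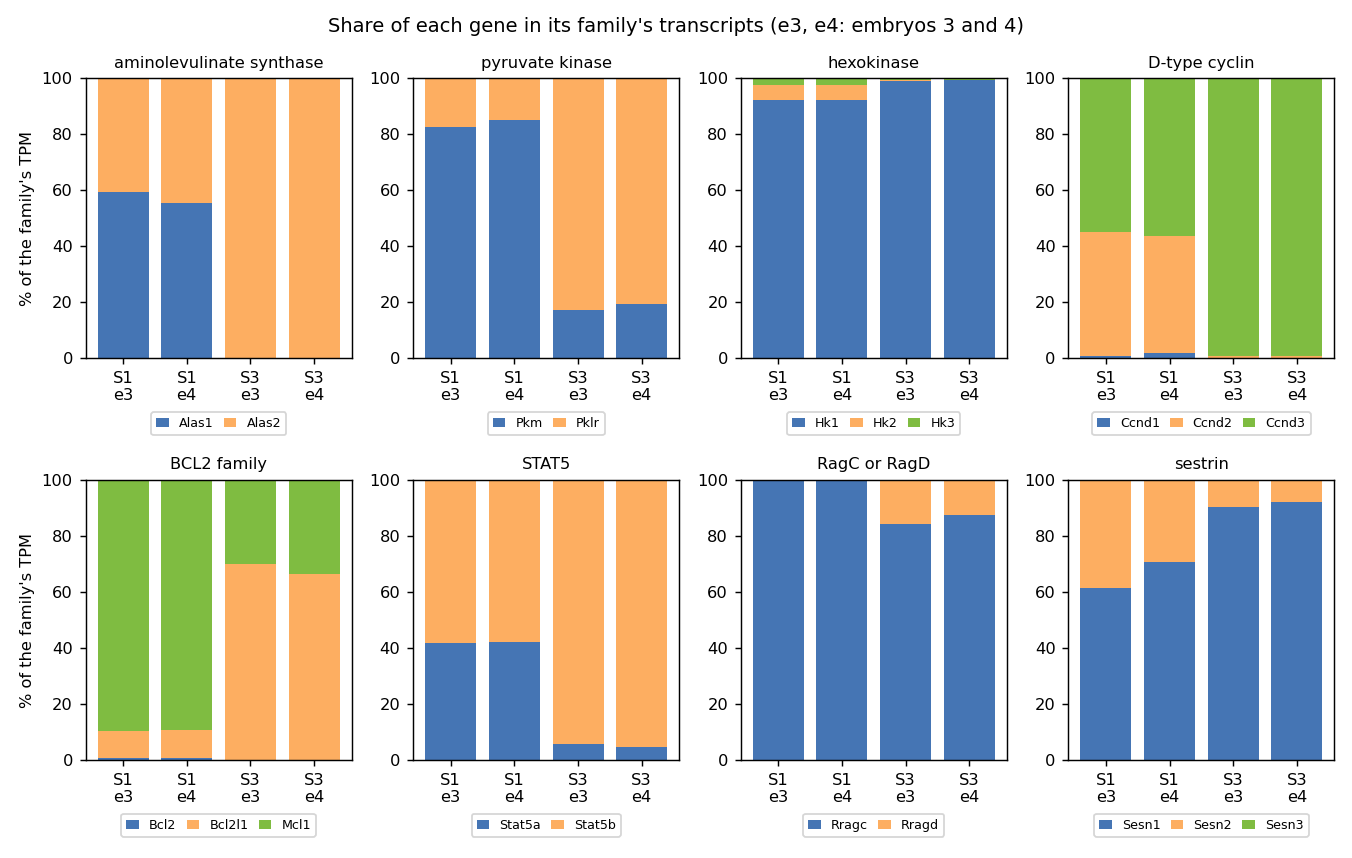
Stacked bars give the percentage of a family's TPM (y axis, from 0 to 100) that each gene supplies in the 4 Het libraries, S1 and S3 of embryos 3 (e3) and 4 (e4). In share, *Pkm* gives way to *Pklr*, *Alas1* to *Alas2* and *Mcl1* to *Bcl2l1* in both embryos. *Mcl1* lost share although its own TPM rose, from 139 and 111 at S1 to 158 and 152 at S3. *Hk1* holds most of hexokinase and *Ccnd3* the largest share of D cyclins at both stages.

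Whether the Het change from S1 to S3 differed from that of the other genotypes was asked in a fit of all 16 libraries, in which a group of 2 shares its estimate of spread with the rest. Against WT, 0 of 13402 genes differed (0%) at an adjusted p below 0.05 by edgeR, 370 differed at an unadjusted p under 0.05, and DESeq2 also called 0. Without the filter on low counts 68 of 28296 genes were called against WT, *Alas2*, *Cdc25b* and *Tmcc2* among them. *Nprl3* rose by 3.36 in Het and 2.63 in WT, a difference of 0.74 ± 0.30 (edgeR adjusted p = 1.00). At S1 the Het libraries held 12.7 and 12.98 CPM of *Nprl3* on this scale, below the 4 WT libraries at 22.6 to 32.6 CPM, and at S3 146 and 118 CPM, while the WT libraries stood at 146, 146, 164 and 204 CPM, so that the groups overlapped. Against KO, 1 gene differed (0.00746%), *Nprl3*, which rose by 3.36 in Het and 7.74 in KO, a difference of -4.38 ± 0.39 (edgeR adjusted p = 2.05e-04). *Ndrg2*, a stress-responsive gene, was next and missed the threshold, with a rise of 1.92 in Het and 3.51 in KO (difference -1.59 ± 0.24, edgeR adjusted p = 0.0763). *Pfkp*, the platelet-type phosphofructokinase, changed by -2.38 in Het and -0.55 in KO (difference -1.83 ± 0.37, edgeR adjusted p = 0.637). DESeq2 called *Ndrg2* and *Pfkp*, beside *Nprl3*, *Zfp185* and *Tmem67*. A p above the threshold does not show that the changes were alike.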

How the data were processed

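The deposited values are counts of read pairs per gene, which the authors made by alignment to mm39 with STAR 2.7.9 and counting with featureCounts 1.6.4 on Ensembl 104 genes, without strand and without pairs that overlap several genes. RNA was amplified by the SMARTer method before polyA libraries were made, and how this affects low counts was not tested. The table held 55416 genes, 54749 of which matched GENCODE M39, and 4 further library columns that match none of the labels were not used.

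Het S3 and S1 libraries (2 each, total counts in the report) were compared with edgeR 4.0.16 (quasi-likelihood test, TMM scaling) in R 4.3.3, on genes with a mean normalised count over 10, with Benjamini-Hochberg adjustment and a threshold of 0.05. Standard errors are the log2 fold change divided by the root of the F statistic. Differences from WT and KO were interaction terms over all 16 libraries, with 13402 genes tested. S1 and S3 libraries with the same number came from the same embryo, and the correlation of their deviations from the stage means was 0.0549. The fit without the embryo block is given and the paired fit is an alternative, as are DESeq2 1.42.0, upper-quartile and total-count scaling, other filters and leaving out each library. The 3 members of each gene list with the smallest p in each direction, the 10 largest rises and falls over 50 CPM without overlap between the stages, the 10 most abundant genes per stage and a list of key genes were named, and further list members were named after their values were seen. Members and lists were chosen with earlier results of these data known. Of 935 list members 5 were not found, and single values of a few others are not reported here. Lists without *Tfrc* or *Hmox1* were added after seeing the data. The fits were tested on simulated data. Promoter windows, 1 per gene, come from RefSeq and were searched for fixed words on both strands.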

Additional observations from a re-analysis of the deposited data

Results flagged for a closer look

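The change of *Nprl3* from S1 to S3 differed between Het and KO embryos, by -4.38 ± 0.39 on the log2 scale (Het minus KO, edgeR's quasi-likelihood interaction test, adjusted p = 2.05e-04). *Nprl3* rose by 3.36 in Het and by 7.74 in KO, from a KO level of 0.319 and 0.676 CPM at S1. The S3 levels were 146 and 118 CPM in Het and 107 and 111 CPM in KO. *Nprl3* is the gene whose promoter was deleted, and the neighbour *Mpg* had a difference of -0.05.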

How the results depend on the processing

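The comparison of S3 with S1 was repeated in 12 other ways and without each library in turn. The counts of called genes stayed within 1.5 times of 4389 and 5578, with 3867 to 4258 higher and 5224 to 5457 lower with a library left out, except for total-count scaling (2243 higher, 8475 lower). The share of higher genes among those called was 44.0%, against 51.7% with upper-quartile and 20.9% with total-count scaling. With the embryo as a replicate block 4455 genes were higher and 5637 lower, and of 234 named genes 233 kept their call and *Hk1* gained one. DESeq2 kept the call of 225, while *Csf1r*, *Hnf4a*, *Maea*, *Pcbp1* and *Pfkm* lost it and *H2az1*, *Hk1*, *Kmt5a* and *Rplp0* gained one. With all 16 libraries in the fit 20 lost the call (among them *Actb*, *Cox5a*, *Csf1r*, *Cycs*, *Hnf4a*, *Lyve1*, *Mcm10*, *Ndufb5*, *Pcbp1*, *Pfkl*, *Pfkm*, *Ppbp*, *Psma4*, *Psma6*, *Rfc5*, *Rpl30*, *Rplp2*, *Rps29* and *Tpm3*). Without a filter on low counts 68 genes differed between Het and WT and 24 between Het and KO, and DESeq2 called 5 between Het and KO. Leaving out a library gave 0 for WT and 1 for KO each time, and so did the embryo block.

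List medians turned sign with upper-quartile scaling for erythropoietin signalling (0.037), amino acid transporters (0.019), ribosomal proteins (0.018), the tricarboxylic acid cycle (0.15) and GATOR, Rag and mTORC1 genes (0.25). With total-count scaling they turned for DNA replication (-0.14), lysosome (-0.69), respiratory chain (-0.24), mitochondrial genome (-0.17), proteasome (-0.55), interferon-stimulated genes (-0.47), megakaryocyte (-0.67) and endothelial markers (-0.60). With a library left out the median ranged from -0.035 to 0.21 for lysosome, -0.36 to 0.093 for amino acid transporters and -0.15 to 0.39 for megakaryocytes. Total-count scaling also reversed *Actb* (-0.0079), *Cs* (-0.20), *Depdc5* (-0.043), *Gfi1b* (-0.13), *H2az1* (-0.59), *Hk1* (-0.62), *Kmt5a* (-0.70), *mt-Nd1* (-0.81), *Nars1* (-0.0010), *Pfkl* (-0.55), *Psmc3* (-0.050), *Rplp0* (-0.69), *Rplp2* (-0.53) and *Rps2* (-0.33). The cause of the shift under total-count scaling was not tested. With 2 embryos, falls to 0 to 3 reads have no firm size.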

Other observations

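Interferon-stimulated genes moved in both directions during Het maturation. Of 42 tested members 21 were higher at S3 and 14 lower, and their median log2 fold change of 0.38 turned to -0.47 with total-count scaling. *Isg15*, a ubiquitin-like protein, went from 0.650 and 1.25 CPM at S1 to 45.7 and 86.1 CPM at S3, and *Ifit1*, an antiviral RNA-binding protein, from 0.203 and 0.167 to 9.33 and 14.2 CPM, so that the stages did not overlap but the S3 libraries of the embryos differed. *Rsad2* (viperin) rose by 5.85 ± 0.38 and *Oasl2* by 4.27 ± 0.30. Lower members include the membrane proteins *Ifitm1*, at 9.24 and 12.1 CPM at S1 and 0.324 and 0.199 CPM at S3, and *Ifitm2*, at 45.4 and 54.8 CPM at S1 and 4.80 and 4.02 CPM at S3, and *Tap1*, *Psmb8* and *Psmb9* of antigen presentation, which fell by 5.40, 3.20 and 2.52. Many non-erythroid blood cells express the latter, and the neutrophil, mast cell and lymphoid markers given above fell with them. Their part in these falls was not tested.

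Antioxidant genes were higher in 16 of 26 cases and lower in 6, with a median of 0.92. Peroxide-removing enzymes of the red cell rose, *Gpx1* (glutathione peroxidase) from 1803 and 2598 to 30632 and 26678 CPM, *Prdx2* (peroxiredoxin 2) from 1186 and 1353 to 18835 and 15512 CPM and *Cat* (catalase) by 3.23 on the log2 scale. The related peroxiredoxins *Prdx5* and *Prdx6* fell by 1.52 ± 0.13 and 1.73 ± 0.14, and *Prdx1* by 0.37 ± 0.14. *Gclc*, *Gclm* and *Gss* of glutathione synthesis rose by 2.14, 2.56 and 2.30, while *Nfe2l2*, the factor that induces many of these genes, had a log2 fold change of -0.08 ± 0.12 and was not called.

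Among the most abundant S1 transcripts per length, several were chaperones and translation factors. *Eif5a*, which helps ribosomes past proline stretches, was at 6158 and 6302 TPM at S1, above the other genes in embryo 3 and below *Gpx1* in embryo 4, and stood at 2503 and 2440.3 TPM at S3, and its normalised level did not pass the test (log2 fold change -0.04 ± 0.15). *Hspa8*, the constitutive heat-shock chaperone, fell from 3869 and 4245 to 1125 and 1198 CPM and *Ppia*, a prolyl isomerase, from 3042 and 3644 to 1328 and 1303 CPM. The 10 largest rises include *Gm38619*, which went from 8 and 2 reads at S1 to 2434 and 2181 at S3, *Gm867*, from 9 and 10 to 3874 and 4082, and *Apol11b*, from 3 and 6 to 1668 and 1970, genes for which no role is given here.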
